A study of Mus musculus with 6 samples.

Results

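The let-7 and miR-98 family of microRNAs was followed in mouse iBN cells with and without induction of PU.1, a transcription factor of the myeloid lineage that Spi1 encodes. All rows of the deposited count table named let-7 with a letter, or miR-98, were taken, on both arms of the hairpin, with 1 row kept per mature name. This rule was met by 23 of the 1915 mature names, of which 20 had reads and 3 (let-7a-2-3p, let-7c-1-3p and let-7k) were at 0 in every library. Names carry the mouse prefix mmu in the table, as in mmu-let-7a-5p, mmu-let-7j and mmu-miR-98-5p, and it is left out of the text. The 3′ arm let-7a-1-3p shares its reads with let-7c-2-3p and was counted once with it, which left 19 separate measurements. Induced cells, given doxycycline at 1000 ng/ml over 72 hours, were compared with uninduced cells, with 3 libraries in each group, numbered as trials 1, 2 and 3. The labels describe both groups as BN cells of granulocyte-macrophage progenitor type, with a PU.1-inducible system, grown as a suspension in medium holding GM-CSF and serum. The uninduced cells thus carry the inducible system too, and cells that lack it but received doxycycline were not analysed here, so doxycycline itself and PU.1 cannot be told apart. The labels give neither the promoter of the system nor whether each trial was a culture of its own. The p-values therefore judge a difference only against the spread between these libraries, and that spread may be technical.

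The let-7 microRNAs are short RNAs cut from hairpin precursors by Drosha and Dicer. The arm at the 5′ side (5p) is usually loaded into Argonaute and the 3′ arm (3p) mostly degraded. They recognise target messages through the seed, bases 2 to 8, and are known for restraining growth and self-renewal genes such as Hmga2, Myc and the Ras genes. In blood, the RNA-binding protein Lin28 holds let-7 low in fetal progenitors, and let-7 is high in adult ones. Mature let-7 is made from many hairpins, several of which give the same mature RNA.

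The mature sequences are shown because the members differ by so few bases that the counts of neighbouring members depend on them. All 20 names with reads matched a RefSeq mature sequence (GRCm38.p6), and the seed is in capitals. The 5p arms, from the most to the least abundant here, were:
let-7i-5p: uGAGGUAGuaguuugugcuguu
let-7f-5p: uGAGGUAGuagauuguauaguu
let-7a-5p: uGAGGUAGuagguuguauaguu
let-7c-5p: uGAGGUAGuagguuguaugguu
let-7g-5p: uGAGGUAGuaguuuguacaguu
miR-98-5p: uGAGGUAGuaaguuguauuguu
let-7d-5p: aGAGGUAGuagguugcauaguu
let-7b-5p: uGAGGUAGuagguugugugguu
let-7j: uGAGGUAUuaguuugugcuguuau
let-7e-5p: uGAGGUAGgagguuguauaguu

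Of these 10 arms 9 had the seed of let-7a-5p, GAGGUAG, and let-7j had GAGGUAU. Counted from 1 at the 5′ end, let-7a-5p differs from let-7c-5p by A19G alone, from let-7f-5p by G12A alone and from let-7e-5p by U9G alone, and let-7b-5p differs from let-7c-5p by G17A alone. Among the 36 pairs of the 9 arms with that seed, 4 were 1 substitution apart and 10 were 2 apart. The number of mismatches that the read alignment allowed is not given in the sources used here, so the split of reads between such close members is uncertain. In RefSeq 11 mature names carry the seed. The other 2, miR-1961 and let-7k, had 0 reads in all libraries.

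The 3p arms tell hairpins apart where the 5p arms do not, except that let-7c-2-3p is identical to let-7a-1-3p. The seed is again in capitals.
let-7a-1-3p: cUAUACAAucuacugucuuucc
let-7c-2-3p: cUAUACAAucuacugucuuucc
let-7a-2-3p: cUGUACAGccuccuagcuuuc
let-7c-1-3p: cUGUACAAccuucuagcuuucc
let-7f-1-3p: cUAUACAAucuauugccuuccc
let-7f-2-3p: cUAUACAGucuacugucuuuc
miR-98-3p: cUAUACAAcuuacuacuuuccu

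With 1 entry per name the induced libraries held 9089319 to 13946613 reads and the uninduced ones 8697384 to 11714847. A count of 0 allowed up to 0.215 to 0.345 CPM (reads per 1000000 reads) in 1 library, a limit for counting error only. Of the haematopoietic markers 6 of 6 were detected, with a summed level of 74300 to 91900 CPM in induced and 71800 to 90800 CPM in uninduced libraries. Most of this sum was miR-142a-5p (mean 62466 CPM over all libraries) and miR-142a-3p (10422 CPM). miR-150-5p (34.1 CPM) and miR-146a-5p (5.49 CPM) were low. The lists of other cell types summed to far less, but the neural list exceeded both of these low markers and the epithelial list exceeded miR-146a-5p. The muscle list summed to at most 0.367 CPM in induced and 0.275 CPM in uninduced libraries, with miR-206-3p at 0, and miR-122-5p of liver to at most 0.224 and 0.222 CPM. The neural list, with miR-124-3p at 0, had 303 to 354 CPM in induced and 319 to 397 CPM in uninduced libraries, and the embryonic stem list, with 4 of 6 markers at 0, at most 0.914 and 0.889 CPM. The epithelial list (6 of 6 detected) was higher in induced libraries, at 79.3 to 100 CPM against 31.5 to 39.2 CPM in uninduced ones. The erythroid list, with miR-144-3p at 0, had 37.5 to 40.1 CPM against 22.9 to 36.5 CPM, so its groups were only just apart. Differences in these sums were not tested. The part of these lists in the let-7 values was not tested.

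The family was abundant in both groups. The 10 5p arms took 6.71%, 6.04% and 5.86% of the reads in induced trials 1, 2 and 3, and 7.01%, 7.56% and 6.21% in uninduced trials 1, 2 and 3 (95% Wilson interval at most ± 0.018 percentage points per library). The 3p arms together held 0.14% ± 0.025 of the reads in induced and 0.152% ± 0.025 in uninduced libraries (SD, n = 3 each). The members spanned a wide range, and let-7i-5p and let-7f-5p led it.

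Over all 6 libraries let-7i-5p averaged 23291 CPM and ranked 11th of the 1915 names, and let-7f-5p averaged 19709 CPM and ranked 12th. CPM here and below are scaled with TMM factors, and they are levels relative to the other microRNAs of a library. let-7i-5p stood above let-7f-5p in 6 of 6 libraries, 1.18-fold on average, and the ranges of the pair did not overlap. let-7f-5p was in turn 3.08-fold above let-7a-5p. let-7a-5p (6394 CPM) and let-7c-5p (6051 CPM) followed, and their order was not stable, with let-7a-5p higher in 4 of 6 libraries. let-7g-5p had 4401 CPM and lay apart from its neighbours in the order. Ranges overlapped again between miR-98-5p (2067 CPM) and let-7d-5p (1696 CPM), and between let-7d-5p and let-7b-5p (1470 CPM). let-7j (353 CPM) and let-7e-5p (113 CPM) closed the order, each with a range of its own. These orders compare reads of RNAs of nearly equal length, but ligation and amplification can favour some sequences.

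**Figure D1:**
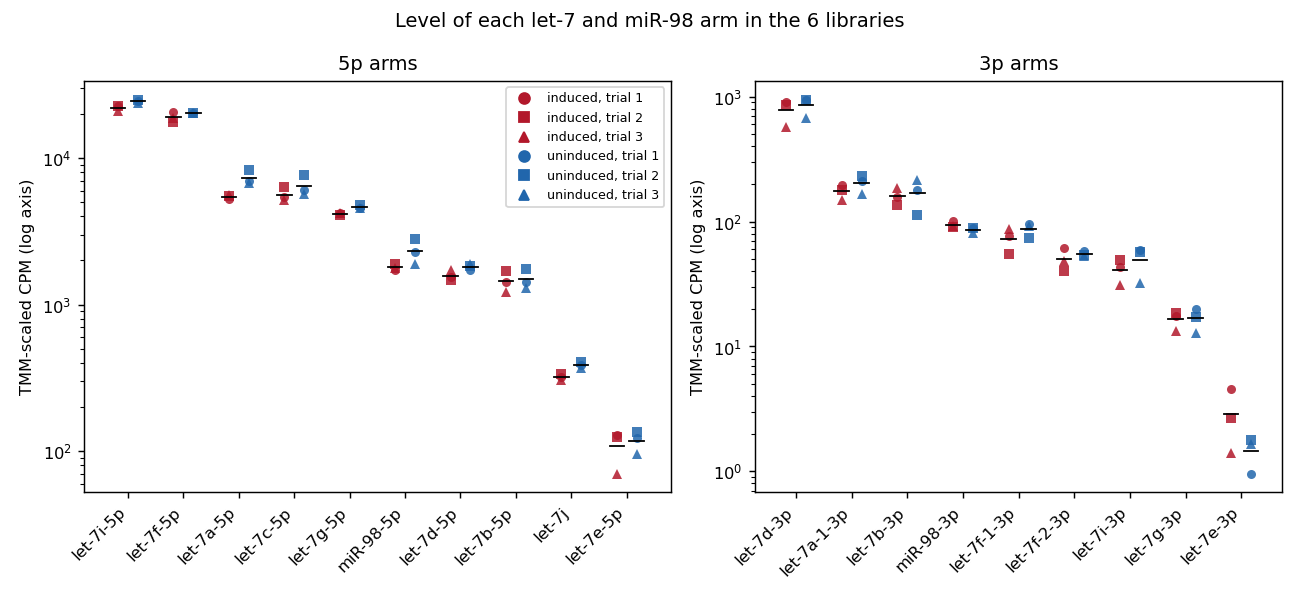
TMM-scaled CPM on a log axis (y) of each arm (x, ordered by mean), with the 5p arms left and the 3p arms right; each point is a library, induced in red and uninduced in blue, the symbol gives the trial and the black bar the mean of 3 libraries. let-7i-5p (mean 23291 CPM) and let-7f-5p (19709 CPM) lie at the top and let-7e-5p (113 CPM) at the bottom of the 5p arms, while the 3p arms run from let-7d-3p (778 CPM in induced, 854 CPM in uninduced libraries) to let-7e-3p (2.88 and 1.46 CPM).

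The comparison with uninduced cells asked whether the family's level or make-up differed after induction. All 10 of the 5p arms had a negative log2 change, between -0.44 for let-7a-5p and -0.05 for let-7b-5p, under each of the 3 library scalings tried. Over all 19 measurements 17 were negative, against 47.8% of the 525 microRNAs tested. In the quasi-likelihood test of edgeR, with p-values adjusted after Benjamini-Hochberg over those 525, none of the 19 passed 0.05. That is 0 of 19, against 6.10% of all tested, of which 2.67% were lower and 3.43% higher in induced cells. DESeq2 and limma-voom also passed 0 of the 19, while over all tested they passed 37 and 20. At an unadjusted p under 0.05 there were 3 in edgeR (20.8% of all tested), 2 in DESeq2 and 3 in limma-voom. The unadjusted share of all tested was not computed for DESeq2 and limma-voom, so those counts have no background beside them. All 19 exceeded the filter's minimum in all 6 libraries, so none entered the test through induced libraries alone.

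Both groups have trial numbers in the labels, and libraries of the same trial deviated together. With the trial as a block in edgeR, 3 members fell and 0 rose. In that fit 21.7% of all tested microRNAs passed, 11.0% of all tested lower and 10.7% higher, so the 3 of 19 members are near the background. They were let-7a-5p, miR-98-5p and let-7j. When both libraries of a trial were left out of the blocked fit, 1 member was called lower without trial 1 (5.44% of all tested), 1 without trial 2 (6.08%) and 0 without trial 3 (1.35%). In both cases with a call it was let-7a-5p.

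let-7a-5p had 5259, 5493 and 5559 CPM in induced trials 1, 2 and 3, and 7020, 8318 and 6717 CPM in uninduced trials 1, 2 and 3. Every induced library lay below every uninduced library. The log2 change was -0.44 (SE 0.11, 95% interval -0.69 to -0.18). Its edgeR adjusted p was 0.0505 with the group alone and 0.00344 with the block. Over 16 unblocked alternatives the adjusted p ranged from 0.0303 with no filter to 0.454 without both libraries of trial 1. Of these 2 passed, the edgeR fit with no filter (4.18% of all microRNAs in that fit passed) and the one without uninduced replicate 3. Within the trials the log2 ratio was -0.42, -0.60 and -0.27, so trial 2 showed the widest gap. In the blocked fit the edgeR adjusted p was 0.0144 without trial 1, 0.0192 without trial 2 and 0.0904 without trial 3.

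miR-98-5p, which shares the seed and differs from let-7a-5p by G11A and A19U, had 1713, 1893 and 1789 CPM in induced libraries, and 2287, 2820 and 1901 CPM in uninduced libraries of trials 1, 2 and 3. The groups did not overlap, but the induced and uninduced libraries of trial 3 were close. The log2 change was -0.38 (SE 0.15, 95% interval -0.71 to -0.04). Its edgeR adjusted p was 0.183 with the group alone and 0.0196 with the block. Without both libraries of a trial the blocked adjusted p in edgeR lay between 0.0869 and 0.136. Over 16 unblocked alternatives the adjusted p ranged from 0.0464, in the edgeR fit without uninduced replicate 3, to 0.712.

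let-7j had 318, 335 and 305 CPM in induced libraries, and 385, 407 and 367 CPM in uninduced libraries. The groups did not overlap, and the log2 ratio within trials was -0.28, -0.28 and -0.27. The fitted log2 change was -0.28 (SE 0.12), and edgeR gave an adjusted p of 0.236 with the group alone and 0.0355 with the block. Without both libraries of a trial the blocked adjusted p in edgeR lay between 0.0949 and 0.225. Over their first 22 bases let-7j and let-7i-5p differ by G8U alone. The reads of let-7j were a small share of those of the pair, with no overlap between the groups, 1.38%, 1.46% and 1.43% in induced and 1.55%, 1.60% and 1.51% in uninduced libraries of trials 1, 2 and 3 (95% Wilson interval at most ± 0.052 percentage points). The part of misread let-7i-5p in the let-7j count was not tested.

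**Figure D2:**
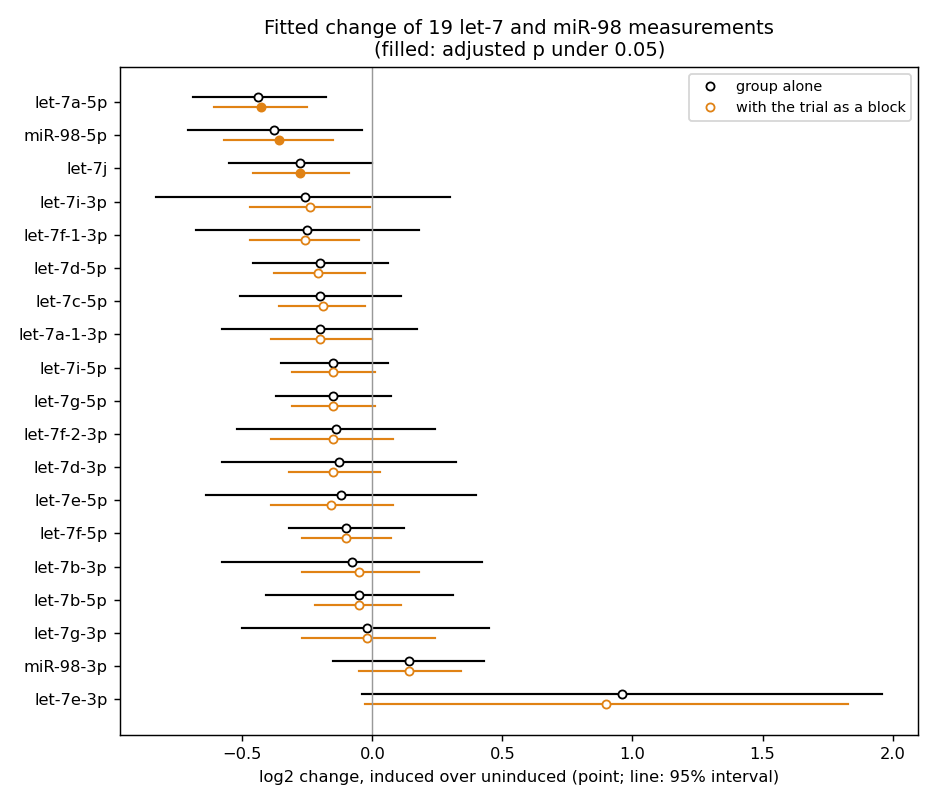
Fitted log2 change of induced over uninduced cells (x, point) with its 95% interval (line) for the 19 measurements (y), with the group alone in black and with the trial as a block in orange; filled points have an adjusted p under 0.05. All 5p arms lie left of 0, and filled points appear only in orange, for let-7a-5p, miR-98-5p and let-7j.

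let-7i-5p and let-7f-5p, at the top of the order, and let-7g-5p, the fifth in it, showed small differences with narrow intervals. let-7i-5p had 22644, 22627 and 21077 CPM in induced libraries, and 24488, 25018 and 23893 CPM in uninduced libraries. These groups did not overlap either, yet the log2 change was -0.15 (95% interval -0.35 to 0.06, edgeR adjusted p = 0.410, blocked 0.170). let-7g-5p, from an intron of Wdr82, had similar values, with 4242, 4077 and 4194 CPM against 4593, 4759 and 4541 CPM and a log2 change of -0.15 (95% interval -0.37 to 0.07, edgeR adjusted p = 0.411, blocked 0.163). let-7f-5p had 20712, 17552 and 18872 CPM in induced libraries, and 20428, 20387 and 20301 CPM in uninduced libraries. Its uninduced libraries were almost equal, the induced ones lay on both sides of them, and the log2 change was -0.10 (95% interval -0.32 to 0.12). For these members the intervals leave out changes of more than 0.37 on the log2 scale in either direction.

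let-7c-5p, let-7d-5p and let-7b-5p had overlapping groups. let-7c-5p had 5409, 6319 and 5168 CPM against 6093, 7654 and 5662 CPM in trials 1, 2 and 3, a log2 change of -0.20 (SE 0.14), with trial 2 highest in both groups. let-7d-5p had 1549, 1461 and 1720 CPM against 1711, 1844 and 1890 CPM, a log2 change of -0.20 (SE 0.12). let-7b-5p had 1415, 1696 and 1221 CPM against 1433, 1755 and 1299 CPM, a log2 change of -0.05 (SE 0.16), the smallest of the 5p arms. The induced library lay below the uninduced one of its trial for 8 of the 10 5p arms in every trial, and for 12 of the 19 measurements (29.5% of all tested microRNAs). It lay above in every trial for 1 measurement, miR-98-3p (29.0% of all tested). Of the 19, 5 had induced libraries all below the uninduced ones (11.6% of all tested) and 1, miR-98-3p, had them all above. Groups that did not overlap, in either direction, were found for 27.6% of all tested. Close members may share reads, so their counts are not separate pieces of evidence. The median log2 change was -0.18 over the 5p arms, -0.13 over the 3p arms and 0.02 over all tested.

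Since all but let-7j share a seed, the summed level of the 5p arms was taken as the pooled dose of the family. It was 63388, 61578 and 59977 CPM in induced trials 1, 2 and 3, and 68560, 73097 and 66668 CPM in uninduced trials 1, 2 and 3. The means were 61648 CPM ± 1707 and 69442 CPM ± 3304 (SD, n = 3 each), a difference of -11.2% or a log2 ratio of -0.17. The log2 ratio within trials was -0.11, -0.25 and -0.15, and without let-7j the log2 ratio of the means was again -0.17. No p is given for this sum, whose members were chosen with earlier results of these data known. In bulk RNA, fewer cells with the family and less of it per cell cannot be told apart.

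The make-up of the dose was described by each member's share of the 5p reads. let-7i-5p and let-7f-5p together gave 66.8% ± 1.58 of the 5p reads in induced and 64.6% ± 2.22 in uninduced libraries (SD, n = 3 each). let-7a-5p gave 8.30%, 8.92% and 9.27% in induced libraries, and 10.2%, 11.4% and 10.1% in uninduced libraries, with no overlap. let-7j gave 0.501%, 0.544% and 0.509% against 0.562%, 0.557% and 0.550%, also with no overlap. An exact two-sided permutation test gave p = 0.1 for both, the smallest that 3 against 3 libraries allow, or 0.5 after Benjamini-Hochberg adjustment over the 10 shares. Of the other 8 shares, whose groups overlapped, the exact permutation p lay between 0.3 and 1.0. Within trials the let-7a-5p share differed by -1.94, -2.46 and -0.81 percentage points (induced minus uninduced). The shares of let-7b-5p and let-7f-5p were higher in the induced library of all 3 trials, by 0.09 to 0.35 and 0.61 to 2.88 percentage points. An exact sign-flip permutation test of 3 trials cannot give a two-sided p below 0.25, the value of these 3 shares and of let-7j. The 95% Wilson interval of a share in 1 library was at most ± 0.13 percentage points.

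**Figure D3:**
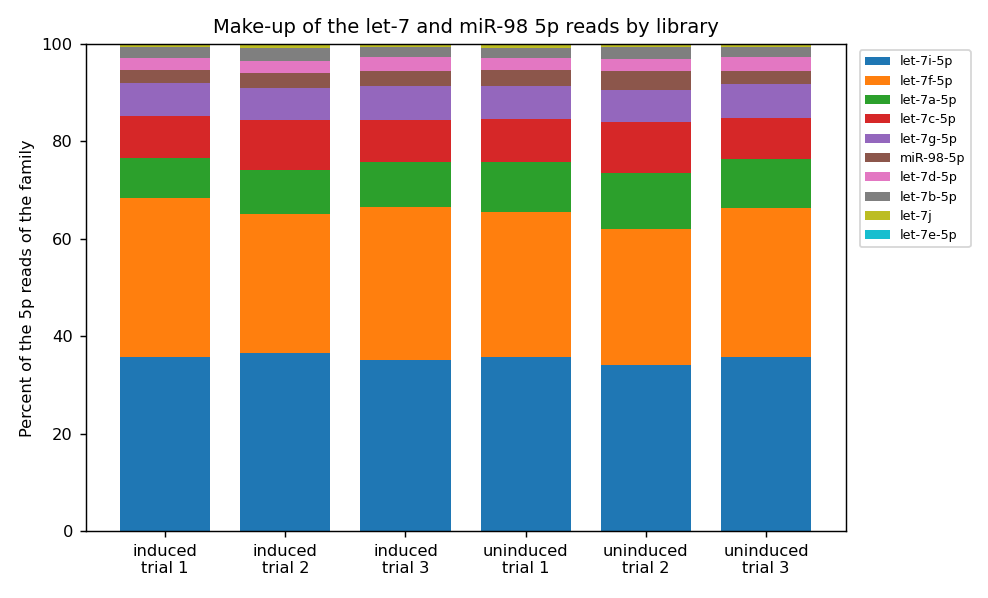
Percent of the family's 5p reads (y) given by each 5p arm (colours) in each library (x, induced libraries left, uninduced right). let-7i-5p and let-7f-5p fill most of every bar (66.8% in induced and 64.6% in uninduced libraries on average) and the let-7a-5p segment is 8.30% to 9.27% in induced against 10.1% to 11.4% in uninduced libraries.

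The 3p arms were next set against the 5p arms of the same hairpins, where these could be told apart. The 5p reads of let-7a, let-7c and let-7f cannot be split by hairpin, so their ratios are not the balance of a single hairpin. The ratios of let-7a and let-7c also divide by the same 3p reads. Hairpins differed widely in arm balance. let-7d was the most even, with 1.72, 1.69 and 3.02 reads of 5p per read of 3p in induced libraries, and 1.82, 1.95 and 2.81 in uninduced libraries of trials 1, 2 and 3. Its 3p arm thus held 32.9% ± 6.99 of the hairpin's reads in induced and 31.9% ± 4.96 in uninduced libraries (SD, n = 3 each). let-7b followed, with 10.3% ± 2.92 on the 3p arm in induced and 10.5% ± 4.08 in uninduced libraries. At the other end let-7i had 526, 456 and 675 reads of 5p per read of 3p in induced libraries, against 413, 439 and 743 in uninduced libraries. Trial 3 gave the highest ratio in both groups for let-7d, let-7g, let-7i and let-7a-5p over let-7a-1-3p. For let-7b it gave the lowest ratio in both groups.

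Of the 10 arm ratios 8 overlapped between the groups and 2 did not, those of miR-98 and let-7e. The log2 ratio of let-7a-5p to let-7a-1-3p overlapped but was lower in the induced library of all 3 trials, with differences of -0.32, -0.24 and -0.13 (exact two-sided sign-flip permutation p = 0.25, the smallest that 3 trials allow). miR-98 had 16.8, 21.1 and 19.3 reads of 5p per read of 3p in induced libraries, and 25.9, 31.8 and 23.6 in uninduced libraries. The mean log2 ratio was 4.25 ± 0.16 in induced and 4.75 ± 0.22 in uninduced libraries (SD, n = 3 each), a difference of -0.50 with the same sign in 3 of 3 trials. The exact two-sided permutation p was 0.1, the smallest possible, and 0.5 adjusted over the 10 ratios. The arms of this hairpin thus stood on opposite sides, since miR-98-3p had 102, 89.9 and 92.5 CPM in induced libraries, and 88.4, 88.8 and 80.7 CPM in uninduced libraries. Every induced library of miR-98-3p lay above every uninduced one, although by little in trial 2, and its log2 change was 0.14 (SE 0.13, 95% interval -0.15 to 0.43, edgeR adjusted p = 0.598).

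let-7e had 28.2, 46.4 and 50.4 reads of 5p per read of 3p in induced libraries, and 127, 75.7 and 58.1 in uninduced libraries, a difference of -1.03 in mean log2 (exact two-sided permutation p = 0.1, 0.5 adjusted). It rests on few reads, since let-7e-3p had 55, 24 and 19 reads in induced libraries, and 9, 16 and 18 in uninduced libraries. Its log2 change of 0.96 (SE 0.45, 95% interval -0.04 to 1.96, edgeR adjusted p = 0.251) was 2.25, 0.60 and -0.24 within the trials, so trial 1 set its size. Without induced replicate 1 the fitted log2 change was 0.43, and without both libraries of trial 1 it was 0.18 in the blocked fit. The remaining 3p arms, those of let-7a-1 (shared with let-7c-2), let-7b, let-7d, let-7f-1, let-7f-2, let-7g and let-7i, had log2 changes between -0.26 and -0.02 with edgeR adjusted p-values of 0.508 to 0.960.

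**Figure D4:**
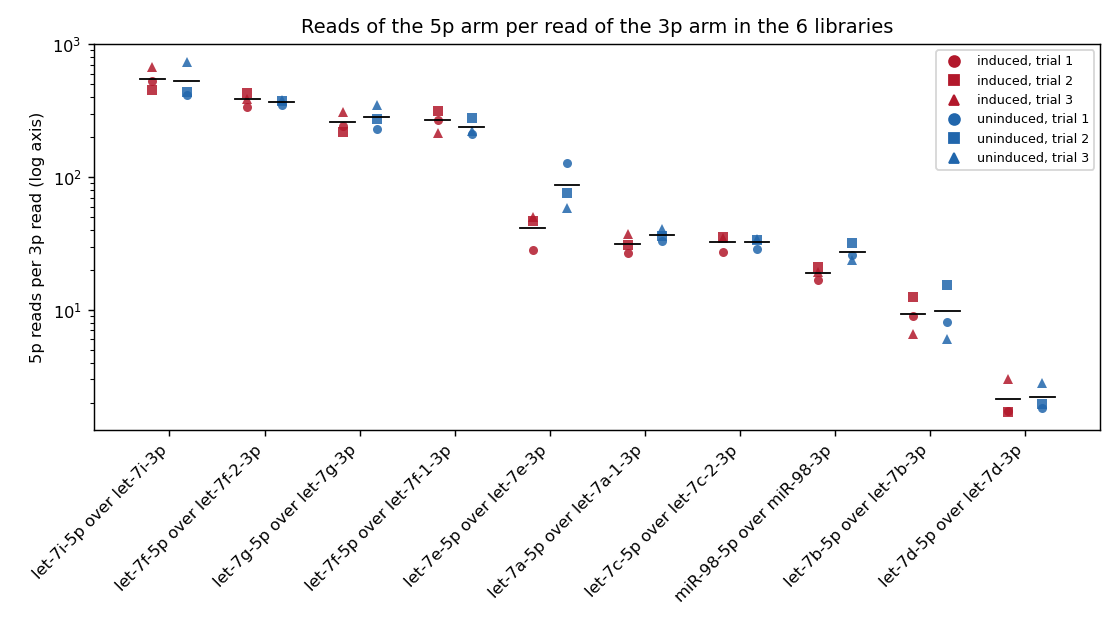
Reads of the 5p arm per read of the 3p arm (y, log axis) for 10 pairs of arms (x); each point is a library, induced in red and uninduced in blue, the symbol gives the trial and the black bar the mean of 3 libraries. Red and blue points separate for let-7e (28.2 to 50.4 against 58.1 to 127) and miR-98 (16.8 to 21.1 against 23.6 to 31.8) and overlap for the other 8 pairs.

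The positions of the hairpins show which members can share a transcript. In GRCm38, the assembly also called mm10, Mirlet7a-1 (chr13:48538179-48538272), Mirlet7f-1 (chr13:48537829-48537917) and Mirlet7d (chr13:48536012-48536114) lie on the minus strand in exons of the long noncoding RNA 6720427I07Rik, with 261 and 1714 bases between neighbours. Mirlet7c-2 (chr15:85706603-85706697) and Mirlet7b (chr15:85707319-85707403) overlap exons of the noncoding transcript Lncppara, 621 bases apart. Mirlet7f-2 (chrX:151912346-151912428) and Mir98 (chrX:151913214-151913321) lie 785 bases apart in an intron of Huwe1, which encodes a ubiquitin ligase. Mirlet7g (chr9:106178840-106178927) is in an intron of Wdr82, Mirlet7i (chr10:122985640-122985724) in an exon of D630033A02Rik, and Mirlet7e (chr17:17830352-17830444) in an intron of Spaca6.

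The 5p names let-7a, let-7c and let-7f are each made from 2 hairpins, and their 3p arms show which of these left reads. let-7a-2-3p and let-7c-1-3p had 0 reads in all 6 libraries, whereas let-7a-1-3p, whose reads let-7c-2-3p shares, had 6021 in the induced and 5847 in the uninduced libraries together. A count of 0 puts each of these arms under 0.345 CPM in any library. The hairpin neighbours of these arms were also scarce. miR-99a-5p, 656 bases from Mirlet7c-1, had 5 reads in the induced and 9 in the uninduced libraries together. miR-100-5p, 5211 bases from Mirlet7a-2, had 5.59 CPM ± 1.35 in induced and 6.77 CPM ± 0.48 in uninduced libraries (SD, n = 3 each). let-7a-5p had 945, 790 and 1305 reads per read of miR-100-5p in induced libraries, and 996, 1336 and 953 in uninduced libraries. 3p arms can be lost more in some hairpins than in others, so the share of let-7a-5p and let-7c-5p reads from each hairpin is not known.

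let-7f left reads on the 3p arms of both hairpins. let-7f-1-3p had 1.26, 1.37 and 1.80 reads per read of let-7f-2-3p in induced libraries, and 1.65, 1.35 and 1.73 in uninduced libraries, so the balance of the chromosome 13 and chromosome X hairpins overlapped between the groups. let-7f-1-3p had 73.3 CPM ± 16.3 in induced and 87.1 CPM ± 12.1 in uninduced libraries, and let-7f-2-3p had 50.1 CPM ± 10.3 and 55.3 CPM ± 2.79 (SD, n = 3 each). On the X chromosome, in the hairpins within Huwe1, miR-98-5p had a log2 change of -0.38 (95% interval -0.71 to -0.04). miR-98-3p had 0.14 (-0.15 to 0.43) and let-7f-2-3p had -0.14 (-0.52 to 0.24), so the signs of miR-98-3p and let-7f-2-3p were not settled. let-7f-5p had 12.1, 9.27 and 10.5 reads per read of miR-98-5p in induced libraries, and 8.93, 7.23 and 10.7 in uninduced libraries, which overlapped (exact two-sided permutation p = 0.3). let-7b-5p had 0.262, 0.268 and 0.236 reads per read of let-7c-5p in induced libraries, against 0.235, 0.229 and 0.229 in uninduced libraries. These did not overlap, by a narrow margin (exact two-sided permutation p = 0.1, 0.2 adjusted over 6 pairs).

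The neighbours of let-7e had log2 changes of 0.43 (miR-99b-5p) and 0.51 (miR-125a-5p), and let-7e-5p had -0.12. Their 95% intervals were -0.09 to 0.95, -0.09 to 1.12 and -0.64 to 0.40, so no sign was settled. miR-99b-5p comes from Mir99b, 94 bases from Mirlet7e on one side, and miR-125a-5p from Mir125a, 367 bases away on the other, and they belong to families linked to stem and progenitor cells of the blood. miR-99b-5p had 2119, 1905 and 1163 CPM in induced libraries, and 1631, 1084 and 1125 CPM in uninduced libraries. miR-125a-5p had 693, 600 and 320 CPM in induced libraries, and 449, 396 and 283 CPM in uninduced libraries. Both were higher in the induced library of every trial, most weakly in trial 3. For miR-99b-5p edgeR gave an adjusted p of 0.326 with the group alone and 0.0569 with the block.

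The log2 change of miR-125a-5p was 0.51 (SE 0.27), and edgeR gave an adjusted p of 0.320 with the group alone and 0.00686 with the block. That blocked call was lost when any trial was left out, with edgeR adjusted p-values of 0.0589 to 0.0873. let-7e-5p had 129, 125 and 70.3 CPM in induced libraries, and 122, 135 and 95.8 CPM in uninduced libraries. Its log2 change of -0.12 (SE 0.23, edgeR adjusted p = 0.819) was 0.08, -0.11 and -0.45 within the trials, and trial 3 was lowest in both groups. The other arm of this hairpin, let-7e-3p, had a log2 change of 0.96, on few reads. let-7e-5p had 0.186, 0.208 and 0.219 reads per read of miR-125a-5p in induced libraries, and 0.271, 0.340 and 0.338 in uninduced libraries, a difference of -0.62 in mean log2. Against miR-99b-5p it had 0.0608, 0.0655 and 0.0604 reads in induced libraries, and 0.0746, 0.124 and 0.0852 in uninduced libraries, a difference of -0.57. Neither pair overlapped, and each had an exact two-sided permutation p of 0.1, the smallest possible, and 0.2 adjusted over 6 pairs. let-7e-5p differs from let-7a-5p by U9G alone. It had 3620 reads against 188001 of let-7a-5p in the induced libraries together, and 3396 against 213943 in the uninduced ones. The part of misread let-7a-5p in the let-7e-5p count was not tested.

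**Figure D5:**
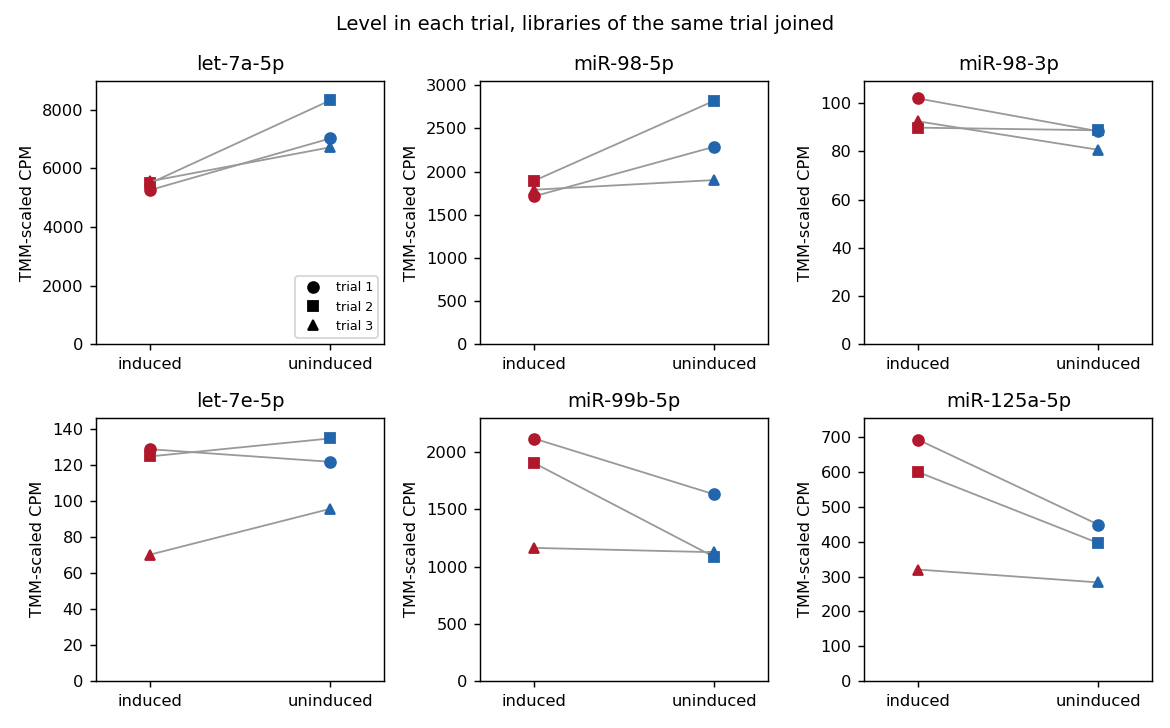
TMM-scaled CPM (y) in induced (left, red) and uninduced (right, blue) libraries of let-7a-5p, both arms of miR-98, let-7e-5p and its neighbours miR-99b-5p and miR-125a-5p; a line joins the libraries of a trial. let-7a-5p and miR-98-5p are lower in the induced library of all 3 trials, while miR-98-3p, miR-99b-5p and miR-125a-5p are higher in it.

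Of the 11 arms of the miR-99, miR-100 and miR-125 hairpins taken as neighbours of let-7 hairpins, 7 were tested. Mir125b-1 (chr9:41581926-41582002) lies farther from Mirlet7a-2 than Mir100 does, in introns of the same noncoding transcripts, 3110039I08Rik and Gm49317. The position of Mir125b-2 is not given here, so the distance of miR-125b from let-7 hairpins is only partly known. In edgeR 0 passed with the group alone (6.10% of all tested), and 1, miR-125b-5p, at an unadjusted p under 0.05 (20.8% of all tested). With the block 1 rose, miR-125a-5p (10.7% of all tested rose in that fit), and 1 fell, miR-125b-5p (11.0% of all tested fell). miR-125b-5p, known for keeping progenitors from differentiating, had 2.49, 2.02 and 2.28 CPM in induced libraries, and 4.16, 5.34 and 2.93 CPM in uninduced libraries. Its log2 change was -0.85 (SE 0.28, edgeR adjusted p = 0.112, blocked 0.0393), and the blocked call was lost when any trial was left out (edgeR adjusted p of 0.114 to 0.266).

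The loop of a let-7 hairpin is where Lin28 binds, and its zinc knuckles are known to recognise the letters GGAG. RNA for Lin28 was not measured by this assay. The stretch between the arms is shown for hairpins of 4 let-7 members whose reads come from a single hairpin, with GGAG in capitals, from RefSeq (GRCm38.p6).
Mirlet7i, minus strand: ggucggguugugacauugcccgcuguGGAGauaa
Mirlet7g, plus strand: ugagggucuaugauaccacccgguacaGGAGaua
Mirlet7d, minus strand: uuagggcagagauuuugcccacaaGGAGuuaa
Mirlet7b, plus strand: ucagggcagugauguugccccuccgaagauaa

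Read on the RNA strand alone, GGAG stood between the arms of 9 of the 11 let-7 hairpins, and of 8.07% of the 644 mouse hairpins with both arms in RefSeq. It was not found in Mirlet7b and Mirlet7c-2. The letters GAU stood in 9 of the 11 and in 15.7% of the 644. In 7 hairpins they overlapped GGAG as GGAGAU, and 4 held GAU elsewhere. Of the let-7 members made from a single hairpin, those with GGAG had log2 changes of -0.15 (let-7i-5p), -0.15 (let-7g-5p), -0.20 (let-7d-5p) and -0.12 (let-7e-5p), and let-7b-5p, without it, had -0.05. With 1 member lacking the letters, no comparison was made.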

How the data were processed

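The deposited table holds, per the file headers, raw counts of reads in 6 libraries for 2061 entries of a mature microRNA with a precursor. The authors deposited CPM values too, which equal counts per 1000000 of a library's summed entries within 0.005. The deposited CPM were used only for that check. The build mm10 and the tools DESeq2 (as 2.1.8.0) and Trim Galore 0.4.0 were listed, per the submitters' processing notes, and the series' design text names alignment to miRBase. The sources used here give no counter, miRBase release, mismatch limit or strand setting, and describe no molecular identifiers, so intervals and floors cover counting error only.

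For names with several entries the one with most reads was kept, and the rest held 17.5% of all reads in the table. Both entries of let-7a-5p, let-7c-5p and let-7f-5p differed little (-0.572% of reads at most). edgeR 4.0.16 (R 4.3.3) was used with filterByExpr by group (525 names tested, 1390 not), TMM factors, robust glmQLFit and a two-sided glmQLFTest, and p-values were adjusted after Benjamini-Hochberg over all tested, with a threshold of 0.05. DESeq2 1.42.0 and limma-voom (limma 3.58.1) were alternatives. Shares and ratios within a library were compared by exact two-sided permutation tests (SciPy 1.17.1), whose smallest p is 0.1, and within trials by exact sign-flip tests, chosen after seeing the data, whose smallest p is 0.25. Within each group every pair of libraries differed beyond sampling noise (lowest chi-square divided by its degrees of freedom, 110). After subtraction of group means, both libraries of a trial correlated in log2 CPM by 0.33, 0.45 and 0.53 across microRNAs. Libraries of different trials correlated by -0.45 to 0.04. With so few trials these values cannot settle whether the trials were paired. A fit with the trial as a replicate block was therefore run beside the primary fit with the group alone, which ignores any pairing. Members and lists were chosen with earlier results of these data known. All members were described, together with the microRNAs of the same clusters. Hairpin positions and sequences are from RefSeq (GRCm38.p6) and host genes from GENCODE M21.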

Additional observations from a re-analysis of the deposited data

How the results depend on the processing

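The pooled level of the family kept a log2 ratio between -0.20 and -0.13 in every alternative tried. Shares and ratios within a library do not depend on the library scaling, so only the choice of entry and leaving out libraries could change them. The 0 members called became 1 with no filter, 3 with the replicate block, and 1 in the blocked fits without trial 1 or without trial 2. Leaving out 1 library gave 0 to 2, the 2 being let-7a-5p and miR-98-5p without uninduced replicate 3. Over all microRNAs 32 were called, against 48 with no filter, 20 with limma-voom, 12 to 41 leaving out 1 library, 114 with the replicate block, and 66, 60 and 12 in the blocked fits without trials 1, 2 and 3. Unblocked fits without both libraries of trial 1 or trial 2, chosen after seeing the data, called 11 each. The cause of these differences was not tested. Small log2 changes crossed 0. Leaving out 1 library gave -0.28 to 0.13 for let-7b-3p, -0.19 to 0.09 for let-7b-5p, -0.29 to 0.01 for let-7d-3p, -0.27 to 0.07 for let-7e-5p and -0.19 to 0.10 for let-7g-3p. Without trial 1 let-7b-3p had 0.02 and let-7g-3p 0.08 blocked, let-7g-3p had 0.08 unblocked, and without trial 3 let-7b-3p had 0.02 blocked. For ratios and shares the mean difference within trials equals the difference of the group means, so the block could not change it. Leaving out 1 library made some of these differences cross 0. Examples are the let-7b arm ratio (-0.30 to 0.37 in log2) and the let-7c-5p share (-0.71 to 0.45 percentage points). The sign was the same in 3 trials for 3 of 10 arm ratios, 4 of 6 neighbour ratios and 4 of 10 shares, each with an exact permutation p of 0.25, the smallest possible within 3 trials. Depth limits let-7e-3p above all, with 9 to 55 reads per library.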
